A study of Mus musculus with 8 samples.

Results

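The genes described here are 10 genes of the lung epithelium, *Sftpc*, *Sftpa1*, *Sftpb*, *Sftpd*, *Scgb1a1*, *Lamp3*, *Napsa*, *Epcam*, *Ager* and *Nkx2-1*, chosen by their symbols out of 33641 gene symbols listed. They were followed in RNA-seq libraries of endothelial cells that had been FACS-sorted from lung tumors, as a measure of epithelial RNA in the sorted cells. All 10 were listed in every library and passed the filter on low values, which kept genes that reached 1 TPM in 4 or more libraries. The unit, TPM, is a transcript level corrected for transcript length that sums to 1000000 in each library, so the levels of different genes can be compared.

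The study had 4 control libraries, named C1 to C4, and 4 endFoxf1+/- libraries, named H1 to H4. The endFoxf1+/- mice carried Pdgfb-CreER and Foxf1 fl/+, so that tamoxifen removes exon 1 from 1 allele of *Foxf1*, a forkhead transcription factor gene of lung endothelium, in cells that express the Pdgfb-driven Cre. The study's results section names littermates with either the floxed allele or the Cre alone as controls. Its methods list a wild-type control for the tumor model. The labels do not tell which of these each control library was. Mice of both groups, on a C57Bl/6 background, received 3 mg tamoxifen by gavage at 6 to 8 weeks of age and LLC cells in the left lung. LLC is a mouse Lewis lung carcinoma line, here 1 mCherry-labelled line in all mice. Tumors were microdissected at day 21 and CD45-CD31+ cells were sorted, a gate that leaves out leukocytes and keeps cells with PECAM1 on their surface, and in which the epithelial surface protein EPCAM was not a gating marker.

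Lung alveoli are lined by type 1 cells, flat cells across which gas is exchanged, and type 2 cells, which make surfactant, store it in lamellar bodies and release it to lower surface tension. Club cells of the airways secrete secretoglobins. Alveolar cells lie next to the capillaries, and surfactant proteins and the club cell secretoglobin are not known as products of endothelium.

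*Foxf1*, the targeted gene, was measured at 213, 285, 296 and 331 TPM in C1 to C4 and at 177, 203, 14.04 and 105 TPM in H1 to H4, with no overlap between the groups (exact two-sided permutation p = 0.0286, the smallest that 4 libraries against 4 allow), and a limma adjusted p of 0.790. Of all genes tested, 2.31% were lower without overlap. The endothelial level, taken as the geometric mean TPM of 20 endothelial markers, was 346 to 439 in C1 to C4 and 437 and 441 in H1 and H2, but 22.4 in H3 and 242 in H4. *Foxf1* was not tested relative to this level. H3 and H4 also stood apart over all genes: their median correlation with the other libraries was 0.795 and 0.892, against 0.958 to 0.968 for the other 6. The group differences of the 10 genes are therefore given with and without them, while correlations and counts over other gene lists are given for all 8 libraries only. Markers of other cell types moved too: the summed TPM of 14 myeloid markers was 1553 to 5306 in control and 2269 to 11411 in endFoxf1+/- libraries, highest in H3. Most of that sum in every library was *Lyz2*, a gene of both type 2 cells and macrophages, so it does not measure myeloid RNA alone. *Ptprc*, which encodes CD45, was listed at 2.94 to 9.13 TPM in control and at 16.5, 9.93, 91.2 and 6.61 TPM in H1 to H4. The sum of 10 erythroid and platelet markers was 1054 to 2120 TPM in control and 431 to 1009 TPM in endFoxf1+/- libraries, without overlap, and that of 12 fibroblast and pericyte markers was 109 to 187 and 170 to 1350.1 TPM. The part of these differences in the results below was not tested. In bulk samples, fewer cells of a type and less RNA per cell cannot be told apart.

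By mean TPM over the 8 libraries the most abundant of the 10 genes was *Sftpc*, followed by *Sftpa1* and *Sftpb*, while *Scgb1a1* was second in C2 and H3. *Sftpc* (GRCm38, chromosome 14, 70520949 to 70524081, minus strand, 6 exons) encodes surfactant protein C, a small hydrophobic peptide made by type 2 cells. Its level was 9044, 5483, 26986 and 7697 TPM in C1 to C4 and 9455, 2201, 1129.8 and 19867 TPM in H1 to H4. C3 and H4 were the highest libraries and H2 and H3 the lowest, so that the endFoxf1+/- libraries lay on both sides of 3 of the 4 control libraries. By mean TPM over the 8 libraries *Sftpc* ranked 5 among all genes, and within single libraries its rank ran from 2 in C3 to 142 in H3.

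*Sftpb* (chromosome 6, 72304610 to 72314371, plus strand, 11 exons) encodes surfactant protein B, the other hydrophobic surfactant protein, which is needed to form the surface film. It was at 515, 393, 1788 and 437 TPM in C1 to C4 and at 520.1, 134, 66.5 and 1914 TPM in H1 to H4. *Sftpa1* (chromosome 14, 41131782 to 41136452, plus strand, 6 exons) and *Sftpd* (chromosome 14, 41172214 to 41185149, minus strand, 8 exons) encode surfactant proteins A and D, collagen-like lectins of innate defence, and their gene bodies lie 35761 bp apart with 2 annotated genes between them. *Sftpa1* was at 534, 438, 1914 and 578 TPM in the control libraries and at 635, 165, 68.3 and 3749 TPM in H1 to H4. *Sftpd* was at 144, 117, 488 and 151 TPM in the control libraries and at 182, 41.1, 23.5 and 586 TPM in H1 to H4. In all 3 genes the order was again C3 and H4 at the top and H2 and H3 at the bottom, with H4 above C3.

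*Lamp3* (chromosome 16, 19653378 to 19706375, minus strand, 6 exons) encodes a membrane protein of lysosomes and lamellar bodies. It was at 38.5, 31.6, 133 and 39.8 TPM in C1 to C4 and at 52.3, 12.99, 4.60 and 287 TPM in H1 to H4. This was the widest spread among the 10 genes, 62.4-fold between H4 and H3. *Napsa* (chromosome 7, 44572380 to 44586862, plus strand, 9 exons) encodes napsin A, an aspartic protease that processes the precursor of surfactant protein B. It was at 53.9, 45.1, 206 and 62.9 TPM in C1 to C4 and at 74.3, 23.8, 23.1 and 157 TPM in H1 to H4, the narrowest spread at 8.91-fold, with H2 and H3 nearly level. *Napsa* overlaps the antisense gene Gm15396, and *Nkx2-1* overlaps Gm26973. Since the library kit does not mark strand, reads of such a pair cannot be told apart.

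For *Sftpb*, *Sftpa1* and *Lamp3*, the promoter windows from 250 bases before to 50 bases after the gene start are given here as sequences. The windows come from RefSeq on GRCm38.p6, which had an entry for 6 of the 10 genes: *Sftpb*, *Sftpa1*, *Lamp3*, *Ager*, *Epcam* and *Nkx2-1*. Those printed are the only windows of the 6 that held a motif searched for, and the windows of *Ager*, *Epcam* and *Nkx2-1* held none. No entry was matched for *Sftpc*, *Sftpd*, *Scgb1a1* and *Napsa*. Capitals mark CTCAAG, the core of sites known to bind NKX2-1, and the forkhead motifs TGTTTGC and TGTTTAC, searched on both strands. The windows are chr6:72304360-72304659 on the plus strand, chr14:41131538-41131837 on the plus strand and chr16:19706316-19706615 on the minus strand, each printed 5′ to 3′ in the direction of its gene. The RefSeq gene start is at 72304610 for *Sftpb*, 41131788 for *Sftpa1* and 19706365 for *Lamp3*, and in the last 2 it differs from the GENCODE start given with the gene's coordinates.
Sftpb: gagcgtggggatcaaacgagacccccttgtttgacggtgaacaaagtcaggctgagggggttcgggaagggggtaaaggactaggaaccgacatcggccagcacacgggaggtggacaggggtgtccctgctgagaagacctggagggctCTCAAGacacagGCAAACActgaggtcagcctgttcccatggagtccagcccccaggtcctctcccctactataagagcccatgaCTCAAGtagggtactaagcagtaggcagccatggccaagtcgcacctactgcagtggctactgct
Sftpa1: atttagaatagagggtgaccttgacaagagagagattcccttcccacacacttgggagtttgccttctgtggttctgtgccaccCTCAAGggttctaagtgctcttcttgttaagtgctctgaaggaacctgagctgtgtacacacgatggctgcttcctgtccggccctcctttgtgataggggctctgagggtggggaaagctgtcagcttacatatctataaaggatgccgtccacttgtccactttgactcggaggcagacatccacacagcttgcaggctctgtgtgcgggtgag
Lamp3: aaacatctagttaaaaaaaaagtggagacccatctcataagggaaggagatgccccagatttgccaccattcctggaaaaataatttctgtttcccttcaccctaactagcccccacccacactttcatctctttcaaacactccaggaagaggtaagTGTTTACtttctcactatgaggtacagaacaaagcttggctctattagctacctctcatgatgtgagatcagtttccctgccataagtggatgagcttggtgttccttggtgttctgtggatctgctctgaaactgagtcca

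CTCAAG began at position -100 and at -15 in *Sftpb* and at -166 in *Sftpa1*, counted from the RefSeq gene start on which each window is set, and was in 2 of the 6 windows. Over all 32851 promoter windows of the same length, 15.9% held CTCAAG at least once and 1.40% held it 2 or more times. TGTTTGC lay in *Sftpb* at -88 on the reverse strand, printed as GCAAACA. It was in 1 of the 6 windows and in 5.07% of all windows. TGTTTAC lay in *Lamp3* at -92 and was in 1 of the 6 windows and in 3.65% of all. No 2 of the marked motifs overlapped. These matches describe letters only and no binding was measured.

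*Scgb1a1* (chromosome 19, 9083636 to 9087958, minus strand, 3 exons) encodes the main secretoglobin of club cells. Its level was 359.9, 523, 1709.8 and 226 TPM in C1 to C4 and 213, 46.6, 153 and 1129.7 TPM in H1 to H4. C3 and H4 were again highest. The lowest library was H2, not H3, and H1 lay just below C4, so that 3 of the 4 endFoxf1+/- libraries were below every control library.

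*Ager* (chromosome 17, 34597862 to 34600936, plus strand, 11 exons) encodes the receptor RAGE, which in lung is most abundant on type 1 cells. It was at 104, 61.5, 175 and 61.0 TPM in the control libraries and at 80.5, 23.5, 6.96 and 185 TPM in H1 to H4. *Nkx2-1* (chromosome 12, 56531958 to 56536908, minus strand, 3 exons) encodes the homeodomain factor that specifies lung epithelium and activates surfactant genes. It was at 13.9, 9.96, 34.4 and 9.22 TPM in the control libraries and at 12.7, 4.52, 1.30 and 41.7 TPM in H1 to H4. Both kept the order of the surfactant genes at the top and at the bottom. *Epcam* (chromosome 17, 87635979 to 87651129, plus strand, 10 exons) encodes an adhesion protein found on nearly all epithelia and had the lowest mean TPM of the 10, at 5.26, 5.15, 15.2 and 3.81 TPM in C1 to C4 and at 7.39, 0.977, 1.77 and 18.0 TPM in H1 to H4. In H3 alone it lay above *Nkx2-1*.

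**Figure D1:**
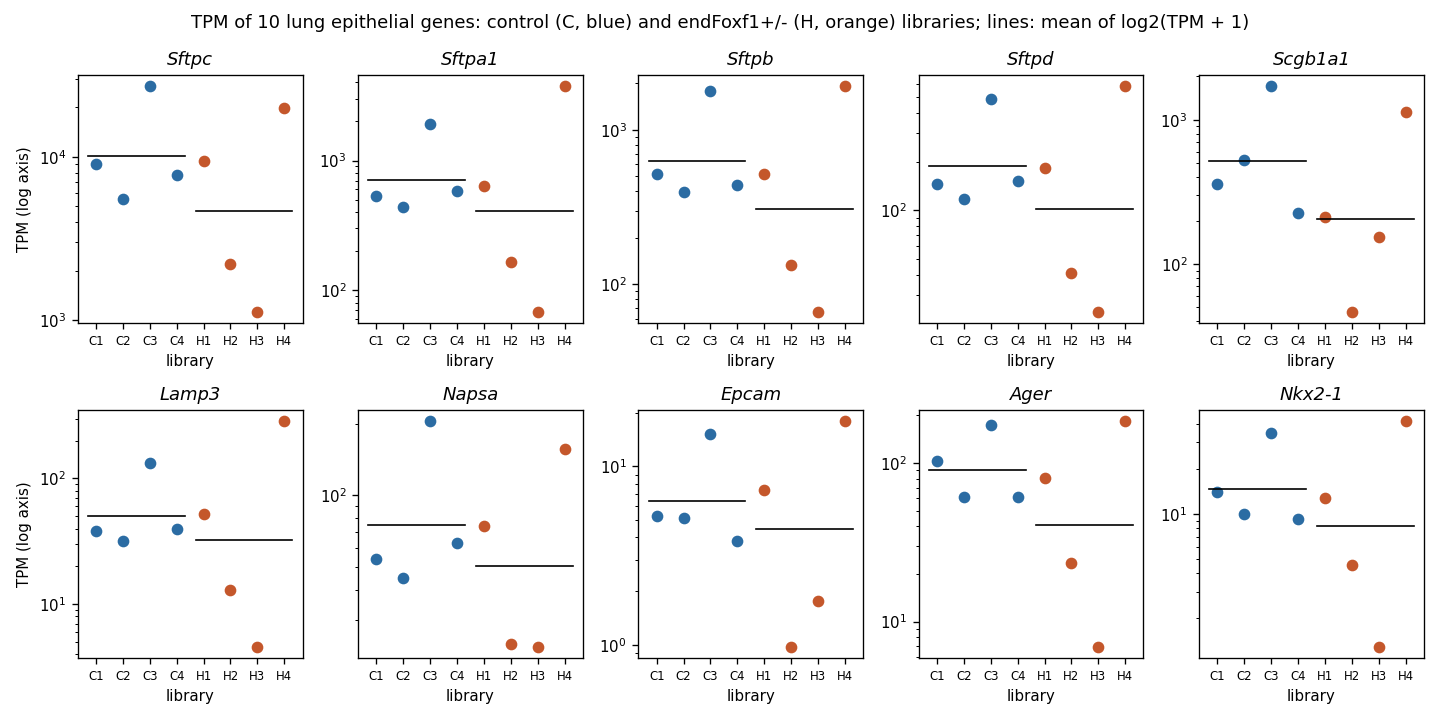
Level in TPM (log axis) of each of the 10 genes in the 4 control libraries (C1 to C4, blue) and the 4 endFoxf1+/- libraries (H1 to H4, orange), where each point is 1 library and each line is the group's mean of log2(TPM + 1) put back on the TPM scale. In all 10 panels C3 and H4 are the 2 highest points and H2 and H3 the 2 lowest.

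Together the 10 genes took 1.08%, 0.711%, 3.34% and 0.927% of the TPM in C1 to C4 and 1.12%, 0.265%, 0.148% and 2.79% in H1 to H4, a mean of 1.52% ± 1.23 in control and 1.08% ± 1.22 in endFoxf1+/- libraries (SD, n = 4). The difference of these means, -0.43 percentage points, turned to 0.18 without C3 and was -0.82 without H3 and H4. *Sftpc* alone made up 71.1% of this sum in H4 and 84.2% in H1, the lowest and the highest share. The share of *Scgb1a1* ran from 1.76% in H2 to 10.3% in H3. The 2 highest libraries were C3 and H4 for 10 of 10 genes and the 2 lowest were H2 and H3 for 10 of 10. C3 ranked first for 3 genes (*Sftpc*, *Scgb1a1* and *Napsa*) and H4 for the other 7.

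The study's comparison asks what changes in tumor endothelial cells with 1 deleted *Foxf1* allele. For the epithelial genes, the difference in mean TPM between the groups was smaller than the SD of either group, for each of the 10. Mean *Sftpc* was 12303 ± 9898 TPM in control and 8163 ± 8634 TPM in endFoxf1+/- libraries (SD, n = 4), a difference in mean log2(TPM + 1) of -1.12 (SE 0.94). Mean *Scgb1a1* was 705 ± 681 and 385 ± 501 TPM, a log2 difference of -1.34 (SE 0.92). Differences on the log2(TPM + 1) scale understate the change of a low gene such as *Epcam*, at 7.36 ± 5.28 and 7.04 ± 7.86 TPM.

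All 10 genes had a lower mean log2(TPM + 1) in the endFoxf1+/- libraries, with differences from -0.44 for *Epcam* to -1.34 for *Scgb1a1* and a median of -0.85. Of all 14964 genes tested, 68.0% had a lower mean, with a median of -0.17. That share depended on the setting: it was 51.8% under median ratio scaling, 48.3% without H3, 30.7% with array weights and 29.3% without H3 and H4. All 10 genes stayed lower in these settings, except that 8 did without H3. None of the 10 genes passed the test (limma with Benjamini-Hochberg adjustment, adjusted p from 0.790 to 0.868), none had an unadjusted limma p under 0.05, and none had groups without overlap. Over all genes the shares were 0.00% by adjusted p, 5.59% by unadjusted p (2.77% lower) and 5.04% without overlap (2.31% lower). The exact two-sided permutation test, made for each of the 10 genes and left unadjusted, gave p from 0.257 for *Scgb1a1* to 0.686 for *Lamp3*, where the smallest possible p is again 0.0286. Of *Sftpa1* and *Lamp3* the mean TPM was higher in endFoxf1+/- libraries (1154 ± 1747 against 866 ± 701 TPM, and 89.3 ± 134 against 60.8 ± 48.5 TPM) while the mean log2 value was lower, with differences of -0.81 (SE 1.09) and -0.64 (SE 1.07). H4 held the highest value of both genes.

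Leaving out H4 moved all 10 differences further below 0. Then 5 genes had an unadjusted limma p under 0.05, *Scgb1a1* (log2 difference -2.16), *Sftpb* (-1.91), *Sftpa1* (-1.88), *Ager* (-1.87) and *Sftpd* (-1.72), each with an adjusted p of 0.807, beside 2.37% of all genes tested that were lower by the same measure. Without H3, *Sftpa1* and *Lamp3* turned to 0.04 and 0.22, and *Sftpc* stood at -0.44. *Scgb1a1* shrank to -0.77 without C3 and to -0.64 without H2. Without both H3 and H4 the difference was -1.14 for *Sftpc* and -2.37 for *Scgb1a1*, and the latter was the only 1 of the 10 with an unadjusted limma p under 0.05 (adjusted p = 0.355), beside 12.1% of all genes tested, or 2.25% in the lower direction.

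**Figure D2:**
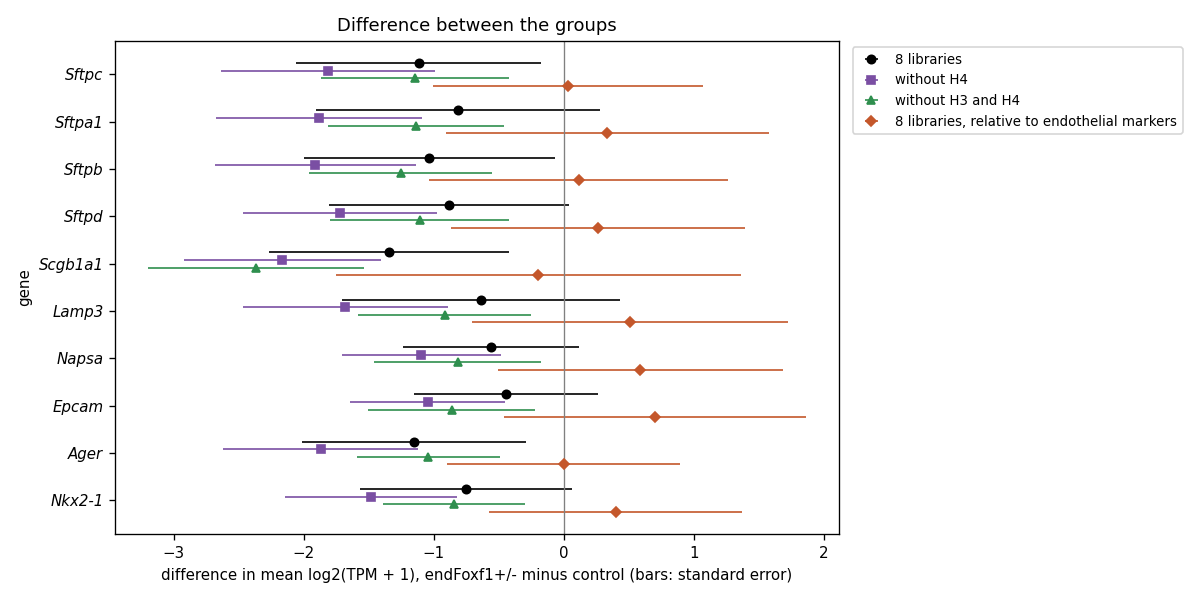
Difference in mean log2(TPM + 1) between endFoxf1+/- and control libraries for each gene (horizontal axis, bars are standard errors), with all 8 libraries (black circles), without H4 (purple squares), without H3 and H4 (green triangles) and with all 8 libraries after subtracting the mean log2 level of 20 endothelial markers (orange diamonds). The black points lie below 0 for 10 of 10 genes, the purple ones further below, and 8 of 10 orange diamonds lie above 0.

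Ratios between genes of the same library do not depend on how the library was scaled. For 45 of 45 pairs the SD of the log2 ratio over the 8 libraries was below the SD of either gene alone, which was 1.12 to 1.81. The 3 most constant ratios were *Sftpa1* to *Lamp3* (SD 0.10), *Sftpb* to *Sftpd* (SD 0.15) and *Ager* to *Nkx2-1* (SD 0.24). *Sftpa1* was 13.8, 13.9, 14.3 and 14.5 times *Lamp3* in C1 to C4 and 12.1, 12.7, 14.8 and 13.05 times in H1 to H4. *Sftpb* stayed between 2.83 and 3.67 times *Sftpd*. Over the same libraries the level of *Sftpb* moved 28.8-fold and that of *Sftpd* 24.9-fold.

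The 9 pairs with *Scgb1a1*, the club cell gene, had the SDs 0.63 to 1.16, against 0.10 to 0.87 for the 36 pairs without it. The largest were *Scgb1a1* with *Lamp3* (1.16), *Ager* (1.14) and *Nkx2-1* (1.09). The ratio of *Sftpc* to *Scgb1a1* was 25.1, 10.5, 15.8 and 34.1 in C1 to C4 and 44.4, 47.2, 7.39 and 17.6 in H1 to H4. H1 and H2 had the highest values and H3 the lowest, so the endFoxf1+/- libraries enclosed the control range on both sides. The log2 difference of this ratio between the groups was 0.24, and 1.24 without H3 and H4 (exact permutation p = 0.771 and 0.133). The second p is the smallest possible with those libraries left out.

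**Figure D3:**
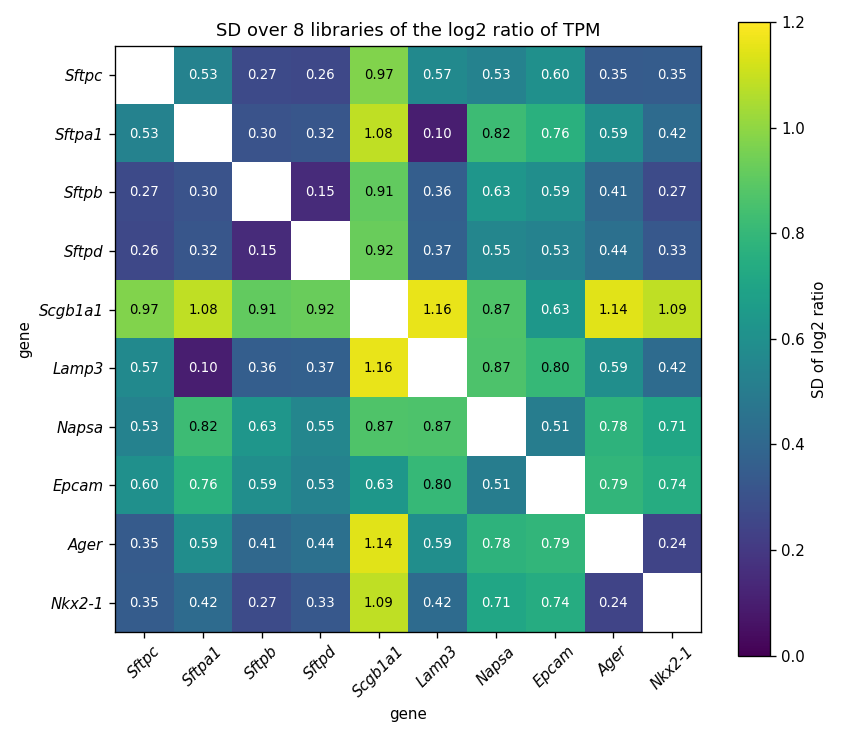
Standard deviation over the 8 libraries of the log2 ratio of TPM for each of the 45 pairs among the 10 genes (rows and columns), where dark cells mark ratios that varied little and light cells ratios that varied much. The row of *Scgb1a1* is the lightest, at 0.63 to 1.16, and the darkest cell is *Sftpa1* with *Lamp3* at 0.10.

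Against *Sftpc*, single libraries stood apart for some genes. The ratio of *Sftpc* to *Sftpa1* was 5.30 in H4 and 12.5 to 17.0 in the other 7 libraries. In the same way *Sftpc* to *Lamp3* was 69.2 in H4 and 169 to 245 elsewhere, and *Sftpc* to *Sftpb* was 10.4 in H4 and 13.96 to 18.2 elsewhere. H4 thus had more *Sftpa1*, *Lamp3* and *Sftpb* relative to its *Sftpc* than any other library, although C3 had the higher *Sftpc*. H3 stood apart in other genes: *Sftpc* to *Napsa* was 48.9 in H3 and 92.5 to 168 elsewhere, and *Sftpc* to *Epcam* was 638 in H3 and 1065 to 2252 elsewhere. Without H3 and H4, the SDs of the 10 pairs among the 4 surfactant genes and *Lamp3* lay between 0.07 and 0.19, against 0.10 to 0.57 with all 8 libraries.

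Between the groups, 7 of the 9 ratios to *Sftpc* were lower in endFoxf1+/- libraries, and none of the 9 had groups without overlap. The exact two-sided permutation p, unadjusted over 9 tests, was 0.229 to 0.80. The smallest was for *Sftpc* to *Napsa*, with a log2 difference of -0.54, which was -0.24 without H3 and -0.31 without H3 and H4.

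**Figure D4:**
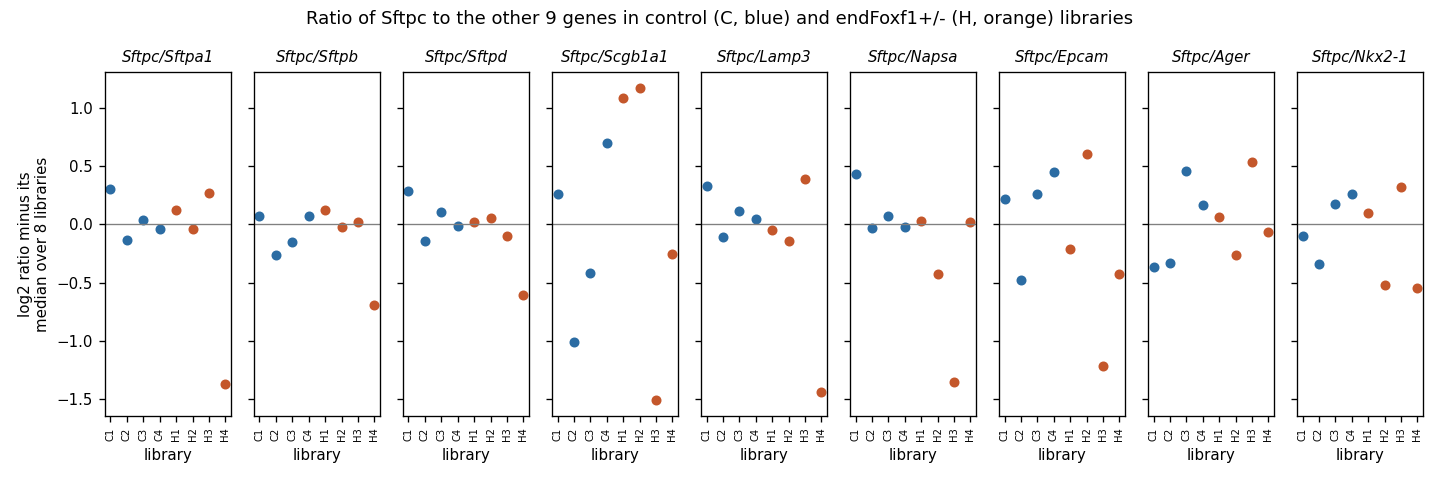
Log2 ratio of *Sftpc* to each of the other 9 genes, minus the ratio's median over the 8 libraries (vertical axis), for control (C1 to C4, blue) and endFoxf1+/- libraries (H1 to H4, orange). H4 is the lowest point for *Sftpa1*, *Sftpb*, *Sftpd*, *Lamp3* and, by little, *Nkx2-1*, H3 is the lowest for *Scgb1a1*, *Napsa* and *Epcam*, and the groups overlap in every panel.

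Set against the endothelial level, the libraries fell in another order. *Sftpc* per geometric mean of the 20 endothelial markers was 20.6, 13.2, 77.9 and 17.7 in C1 to C4 and 21.6, 4.99, 50.4 and 82.0 in H1 to H4. H3, lowest in *Sftpc* TPM, had the third highest value here, beside an endothelial level of 5.49% of the control mean, and H2 was the lowest library. *Scgb1a1* per endothelial level was 0.820, 1.26, 4.94 and 0.520 in C1 to C4 and 0.487, 0.106, 6.82 and 4.66 in H1 to H4, with H3 the highest library. H1 and H2 differed in both measures although their endothelial level was alike, at 107% and 108% of the control mean.

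Relative to the endothelial markers, 8 of the 10 genes were higher in endFoxf1+/- libraries, the reverse of the direction of their mean log2(TPM + 1). The log2 difference was 0.03 (SE 1.04) for *Sftpc*, -0.20 (SE 1.56) for *Scgb1a1* and 0.70 (SE 1.16) for *Epcam*, the largest. None passed a test (exact two-sided permutation p from 0.629 to 1, unadjusted over 10 genes). Without H3 and H4 the relative difference was -1.25 for *Sftpc*, -2.48 for *Scgb1a1* and -1.15 for *Ager*, and none of the 10 was higher, so the sign relative to endothelial markers rested on these libraries.

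**Figure D5:**
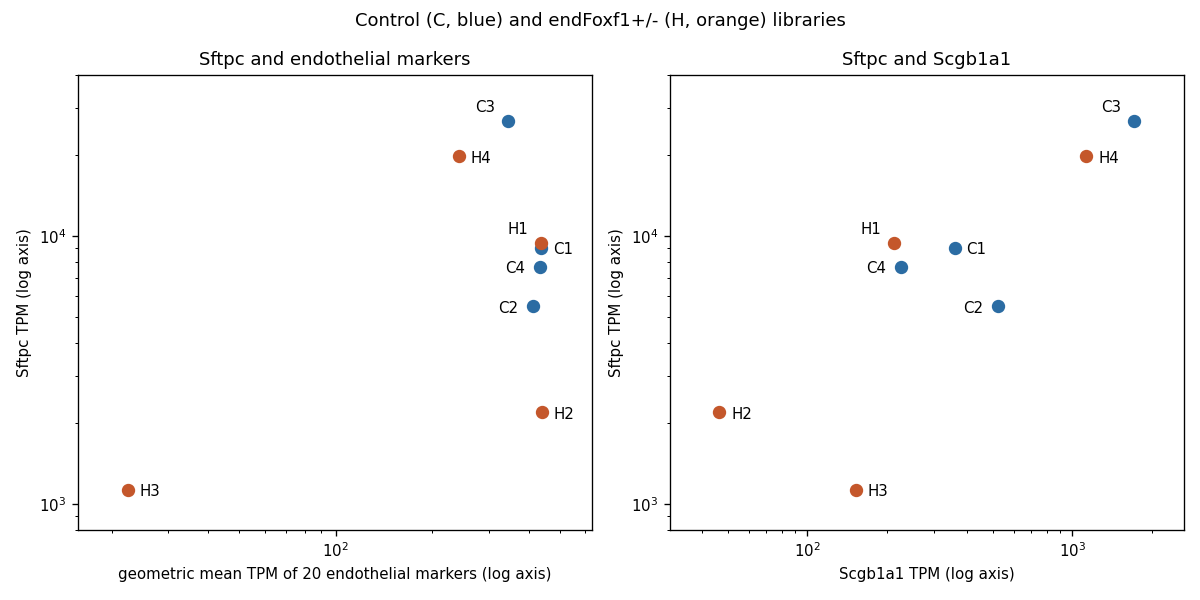
*Sftpc* TPM against the geometric mean TPM of 20 endothelial markers (left) and against *Scgb1a1* TPM (right), all on log axes, for control (C1 to C4, blue) and endFoxf1+/- libraries (H1 to H4, orange). In the left panel 6 libraries share an endothelial level of 346 to 441 TPM while their *Sftpc* runs from 2201 to 26986 TPM, and H3 lies far to the left. In the right panel H2 has less *Scgb1a1* than H3 but more *Sftpc*.

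Other epithelial genes gave context. The type 2 cell list held 19 further tested genes, of which 18 had a lower mean in endFoxf1+/- libraries and none passed the test (median log2 difference -0.30). *Slc34a2*, a phosphate transporter of type 2 cells, was at 118, 101, 402 and 118 TPM in C1 to C4 and at 157, 35.9, 17.0 and 646 TPM in H1 to H4. *Cxcl15*, a lung chemokine, was at 151 to 597 TPM in control and at 232, 52.1, 32.3 and 1558 TPM in H1 to H4. Both had C3 and H4 highest and H2 and H3 lowest, as the surfactant genes did. *Chil1*, a chitinase-like protein gene also among the 4 most abundant of the list, had H4 highest and H2 and H3 lowest but not C3 near the top, at 125, 45.3, 166 and 193 TPM in C1 to C4 and 180.0, 34.3, 22.3 and 679.7 TPM in H1 to H4. Over the 8 libraries the median correlation of log2(TPM + 1) with *Sftpc* was 0.89 in this list, and it was over 0.8 for 16 of the 19.

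The type 1 cell list gave 11 of 14 genes lower (median -0.76), with a median correlation with *Sftpc* of 0.64 and 5 of the 14 over 0.8. Of its 4 most abundant genes, *Clic5*, *Vegfa*, *Emp2* and *Hopx*, the correlation with *Sftpc* was 0.62, 0.52, 0.66 and 0.55. *Ager*, at 0.98, was nearer to *Cldn18* (0.97) and *Aqp5* (0.95), less abundant genes of this list that were chosen after their values were seen. *Clic5*, an intracellular channel protein gene, was at 296 to 353 TPM in control and at 317, 339, 18.3 and 220 TPM in H1 to H4, lowest in H3 and H4 as the endothelial level was. *Hopx*, a homeobox gene of type 1 cells, was at 164 to 281 TPM in control and at 99.6, 101, 24.1 and 69.2 TPM in H1 to H4, with no overlap (log2 difference -1.72, SE 0.44, limma adjusted p = 0.790). Genes lower without overlap made up 2.31% of all genes tested. *Pdpn*, the podoplanin gene, chosen after its values were seen, went the other way without overlap, at 4.30 to 4.82 TPM in control and 5.34 to 18.0 TPM in endFoxf1+/- libraries (log2 difference 0.87, SE 0.34, limma adjusted p = 0.790).

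Of 19 other secretory airway genes 9 passed the filter, and 9 of the 9 were lower (median -1.13), with none past the test. *Cbr2*, a carbonyl reductase of club cells, was at 150 to 705 TPM in control and at 123, 67.8, 29.2 and 569 TPM in H1 to H4. *Scgb3a1*, another secretoglobin, was at 79.2 to 91.6 TPM in control and at 77.6, 62.6, 8.17 and 48.8 TPM in H1 to H4, without overlap and without the peaks that *Scgb1a1* had in C3 and H4. Among 19 tested genes of general epithelial character 16 were lower (median -0.41), and of 12 tested lung epithelial transcription factors 7 were (median -0.23).

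Among the genes most like *Sftpc*, by the Pearson correlation of log2(TPM + 1) over 8 libraries that share the same cell sort and scaling, were *S100g*, *Cldn7*, *Clic3*, *2310030G06Rik*, *Prr15l* and *Sfta2* (r = 0.98 to 0.99). *S100g*, a calcium-binding protein gene, was at 213, 143, 646 and 158 TPM in C1 to C4 and at 182, 61.9, 27.1 and 428 TPM in H1 to H4. Among the 10 genes, *Sftpb* and *Sftpd* were closest to *Sftpc* (both 0.99) and *Scgb1a1* farthest (0.82). The genes most like *Scgb1a1* were *Lrrc23*, *Chchd10*, *Scgb1c1* and *Retnla* (0.95 to 0.99), and those most like *Ager* were *Zdhhc3*, *Rnaset2a*, *Clic3* and *Selenbp1* (0.98 to 0.99). *Clic3* was in the lists of both *Sftpc* and *Ager*.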

How the data were processed

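RNA-seq was analysed for CD45-CD31+ cells of 4 control and 4 endFoxf1+/- mice. The authors deposited TPM per gene symbol for each library. The tool, version and annotation behind these TPM are not given in the sources used here. The submitters' processing notes name TopHat, Cufflinks, Subread and DESeq2 and the builds GRCm38 and mm10. Depth is unknown from TPM, and neither a counting interval nor a floor is given. The number of libraries limits the precision. The authors' DESeq2 needs counts, so limma 3.58.1 in R 4.3.3 (lmFit, eBayes with trend) was run on log2(TPM + 1) for the 14964 genes that reached 1 TPM in 4 or more libraries. P-values were adjusted by Benjamini-Hochberg (threshold 0.05). The fit was tested on simulated data. For single values, exact permutation tests (two-sided) ran over all 70 assignments of 4 libraries (scipy 1.17.1). Ratios used no pseudocount.

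Groups came from the genotype labels and library numbers only name libraries. None of the 28 pairs of libraries was identical. The series text speaks of 4 mice per group. The study's RNA-seq plot of *Foxf1* gives a smaller number per group and does not say which libraries it shows. Coordinates are from GENCODE vM21 on GRCm38, in which 95.6% of the symbols were found. Named genes outside the 10 were the 4 with the highest mean TPM of each list, of which a selection is printed, and the genes most correlated with *Sftpc* (8), *Scgb1a1* (4) and *Ager* (4). Of the 8 most like *Sftpc*, 6 are named and the others are not reported here. A further 6 genes (*Pdpn*, *Cldn18*, *Aqp5*, *Foxj1*, *Tmem212* and *Scgb3a2*) were chosen after their values were seen. The genes, lists and rules were chosen with earlier results of these data known. Alternatives were pseudocounts of 0.1 and 5, a minimum TPM of 5 or none, quantile normalization, median ratio scaling, rescaling without Gm20594, eBayes without trend, array weights, values relative to endothelial markers or *Pecam1*, each library left out, and H3 and H4 left out together.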

Additional observations from a re-analysis of the deposited data

Results flagged for a closer look

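Among 40 group values examined for 1 library far from the other 3, 2 stood out, both in the control group, where chance gives about 1 in 20. The log2(TPM + 1) of *Lamp3* was highest in C3, whose gap to the nearest library was 0.843 of the whole range of the group. The summed TPM share of the 10 genes was also highest in C3, at 3.34% against 0.711% to 1.08% in the other control libraries, with a gap of 0.859 of the range. The difference of the mean shares, -0.43 percentage points, was 0.18 without C3. Without C3 the log2(TPM + 1) difference between the groups was -0.18 for *Lamp3* and -0.64 for *Sftpc*, in place of -0.64 and -1.12, and none of the 10 genes passed the limma test with or without it.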

How the results depend on the processing

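No paired analysis was possible because the labels give no replicate numbers that tie libraries of the groups, and the numbers 1 to 4 used here only follow accession order. Under none of the 18 alternatives did limma call 1 of the 10 genes. Over all genes limma called 148 with array weights, 3 without H3 and H4, and 0 to 1 when 1 library was left out. All 10 genes stayed lower under the other pseudocounts, scalings and filters, and 8 to 10 were lower with 1 library left out. With 1 library left out the log2 difference was -1.88 to 0.039 for *Sftpa1*, -1.68 to 0.22 for *Lamp3* and -1.05 to 0.042 for *Epcam*. Relative to endothelial markers 2 were lower, and the differences turned to 0.032 (*Sftpc*), 0.34 (*Sftpa1*), 0.11 (*Sftpb*), 0.27 (*Sftpd*), 0.51 (*Lamp3*), 0.59 (*Napsa*), 0.70 (*Epcam*) and 0.40 (*Nkx2-1*).

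These relative differences in turn depended on single libraries. With 1 left out they were -0.53 to 0.81 for *Sftpc*, -0.60 to 1.19 for *Sftpa1*, -0.63 to 0.93 for *Sftpb*, -0.44 to 1.11 for *Sftpd*, -1.03 to 0.93 for *Scgb1a1*, -0.40 to 1.35 for *Lamp3*, -0.017 to 1.36 for *Napsa*, -0.59 to 0.67 for *Ager* and -0.20 to 1.07 for *Nkx2-1*, with 2 to 10 genes higher. Without H3 and H4 none was higher (0), at -1.25 (*Sftpc*), -1.25 (*Sftpa1*), -1.36 (*Sftpb*), -1.22 (*Sftpd*), -1.03 (*Lamp3*), -0.93 (*Napsa*), -0.97 (*Epcam*) and -0.95 (*Nkx2-1*). Relative to *Pecam1* alone, *Sftpc* was at -0.071.

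For the ratios to *Sftpc*, leaving out 1 library gave -0.47 to 0.074 (*Sftpa1*), -0.16 to 0.11 (*Sftpb*), -0.11 to 0.78 (*Scgb1a1*) and -0.069 to 0.25 (*Ager*), with 5 to 9 of the 9 ratios lower. Without H3 and H4 the ratio was 0.12 for *Sftpb*, 0.084 for *Epcam* and -0.081 for *Ager*, while that of *Scgb1a1* moved most, from 0.24 to 1.24. The smallest exact permutation p in any setting was 0.0571, for *Scgb1a1* without H4, which is the smallest that 3 libraries against 4 allow. The cause of these changes was not tested. TPM carry no depth, and 4 libraries a group limit what could be detected.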

Other observations

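Genes of ciliated airway cells summed to 179 to 385 TPM in control and 145 to 190.5 TPM in endFoxf1+/- libraries. Over the 8 of them that were tested, the median correlation with *Sftpc* was 0.36, with 2 of the 8 over 0.8. Of 10 listed, 8 passed the filter on low values, and 8 of the 8 had a lower mean in endFoxf1+/- libraries (median log2 difference -0.90), with 5 at an unadjusted limma p under 0.05 and none past the adjusted threshold, beside 2.77% of all genes tested that were lower at that unadjusted p and 2.31% lower without overlap. Most of the sum was *Tppp3*, a tubulin polymerization gene, at 128, 174, 260 and 218 TPM in C1 to C4 and at 111, 152, 128 and 105 TPM in H1 to H4. *Dynlrb2*, a dynein light chain gene, was at 11.0, 18.2, 32.4 and 11.7 TPM in C1 to C4 and at 6.08, 8.20, 4.29 and 7.88 TPM in H1 to H4. *Tmem212* was at 3.18, 4.77, 15.4 and 4.12 TPM in C1 to C4 and at 1.87, 0.911, 2.29 and 0.439 TPM in H1 to H4. *Dynlrb2* and *Tmem212* were highest in C3, as *Sftpc* was, but not high in H4, and their groups did not overlap. *Sec14l3*, one of the 2 genes over 0.8, was high in both, at 29.4 TPM in C3 and 24.9 TPM in H4. *Foxj1*, the master gene of cilia formation, did not exceed 2.09 TPM. *Foxj1* and *Tmem212* were chosen after their values were seen.

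*Krt18*, a keratin gene, was at 16.9 to 46.5 TPM in 7 libraries and at 180.0 TPM in H3, the library lowest in *Sftpc*. *Lyz2*, a lysozyme gene of both type 2 cells and macrophages, was at 1875, 1351, 4955 and 1400 TPM in C1 to C4 and at 2408, 1582, 6870 and 4476 TPM in H1 to H4, high in C3 and H4 like the surfactant genes and highest in H3. *Scgb3a2*, a secretoglobin, was at 7.66, 21.8, 44.0 and 14.7 TPM in C1 to C4 and at 0.246, 1.41, 2.33 and 12.3 TPM in H1 to H4 (log2 difference -2.51, SE 0.73, limma adjusted p = 0.790). It was chosen after its values were seen.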
